A study of Mus musculus with 12 samples.

Results

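Liver RNA of obese mice injected with a vehicle was compared with liver RNA of obese mice that received no injection, to describe across the genome what the injections and the vehicle did on their own. Both groups were C57BL/6N mice that ate a high-fat diet for 15 weeks from 6 weeks of age. The 3 vehicle samples (replicates 15, 23 and 55) came from mice given 30% DMSO in corn oil into the peritoneal cavity once daily for 4 days, and the 3 uninjected samples (replicates 4, 30 and 38) from mice whose treatment is labelled none. These 6 of the 12 samples of the study were taken because 1 deposited table gives the read counts of every gene in them. The other 6 samples were 3 livers of chow-fed, uninjected mice and 3 livers of mice on high-fat diet injected with 50 mg/kg of pregnenolone 16α-carbonitrile (PCN), a ligand of the pregnane X receptor of rodents. The needle, the DMSO and the oil were given together, so their parts cannot be told apart. Separate animals are not stated in the labels, so the p-values measure the spread between these samples, which may be technical.

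DMSO is a solvent for drugs that dissolve poorly in water, and corn oil is a common carrier for injection. The liver answers injury or inflammation anywhere in the body, the peritoneum included, with the acute phase response. In that response interleukin-6 and interleukin-1 act on hepatocytes through STAT3, NF-κB and C/EBP factors, and the hepatocytes secrete more of one set of plasma proteins and less of another. In obesity the same hepatocytes make fatty acids from sugar under the control of SREBP-1c, ChREBP and LXR and store them as triglyceride in lipid droplets.

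Total counts were 38161486, 24006180 and 7466378 reads in uninjected replicates 4, 30 and 38 and 19773547 to 22039805 in the vehicle libraries. Counts were given for 26015 genes, of which 13775 passed edgeR's expression filter and were tested. Alb, the main hepatocyte marker, stood at 764605 to 1420535 normalized counts, so the libraries hold liver RNA as labelled. A normalized count is a read count divided by the size factor of its library. Reads of mitochondrial genes took 6.59% to 9.77% of a library. Uninjected replicate 38 was the shallowest library and lay apart from the others on the second principal component. Vehicle replicate 55 lay apart on the first component, and vehicle replicate 23 correlated better with the uninjected libraries (median Pearson r = 0.986 across genes) than with the other 2 vehicle libraries (0.973). A value that moves by over 1.5 times without 1 library is given without that library as well.

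The vehicle livers had more RNA of acute phase and complement genes and less RNA of lipid synthesis, lipid droplet and matrix genes. Orm2, which encodes the plasma carrier protein α1-acid glycoprotein, was the 1 gene called by edgeR's quasi-likelihood test after Benjamini-Hochberg adjustment (0.00726% of 13775 genes), and it rose. Its normalized counts were 597, 571 and 585 in uninjected replicates 4, 30 and 38 and 6098, 5060 and 10263 in vehicle replicates 15, 23 and 55. The groups lay far apart, with the highest value in vehicle replicate 55. The ratio of the means, 584 ± 12.9 and 7140 ± 2754 (SD, n = 3), was 12.2-fold, with an edgeR log2 ratio of 3.61 ± 0.28 (SE) and an adjusted p of 0.0211. The call was lost without uninjected replicate 4, 30 or 38 or vehicle replicate 15 (edgeR adjusted p 0.255, 0.0539, 0.178 and 0.0732), while the log2 ratio stayed between 3.25 and 3.80 under every alternative. At an unadjusted edgeR p under 0.05 there were 1725 genes, 797 higher (5.79%) and 928 lower (6.74%).

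The authors' deposited table, made with DESeq2, called 206 genes at an adjusted p under 0.05, 73 higher and 133 lower with vehicle, or 1.5% of the 13775 genes (0.53% higher and 0.966% lower) and 0.792% of all 26015. A gene past that threshold in the authors' deposited table is named a deposited call here, and such a call was made by DESeq2 and not by edgeR unless stated. All 206 had an unadjusted edgeR p under 0.05, and in 205 the 3 values of one group lay outside those of the other, Hectd2os being the exception. Of the 206, 138 differed more than 2-fold, 48 of them higher and 90 lower. Vehicle replicate 23 was the vehicle library nearest to the uninjected group in 142 of the 206 genes, and uninjected replicate 30 was the uninjected library nearest to the vehicle group in 133.

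A broader count, with no test, took every gene whose 2 groups did not overlap. There were 2710 such genes among the 13775 (19.7%), 1300 higher (9.44%) and 1410 lower (10.2%) with vehicle. With library totals in place of the size factors the split was 548 higher and 2815 lower. In edgeR, library totals in place of the TMM normalization moved the median log2 ratio of all genes from 0.02 to -0.12. Of 728 genes past 2-fold, 408 had groups that did not overlap, 164 higher and 244 lower. Genes past 4-fold numbered 59, and 43 of these did not overlap, 15 higher and 28 lower. Counts for the lists below are to be read beside the shares without overlap and the 1.5% of deposited calls.

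**Figure D1:**
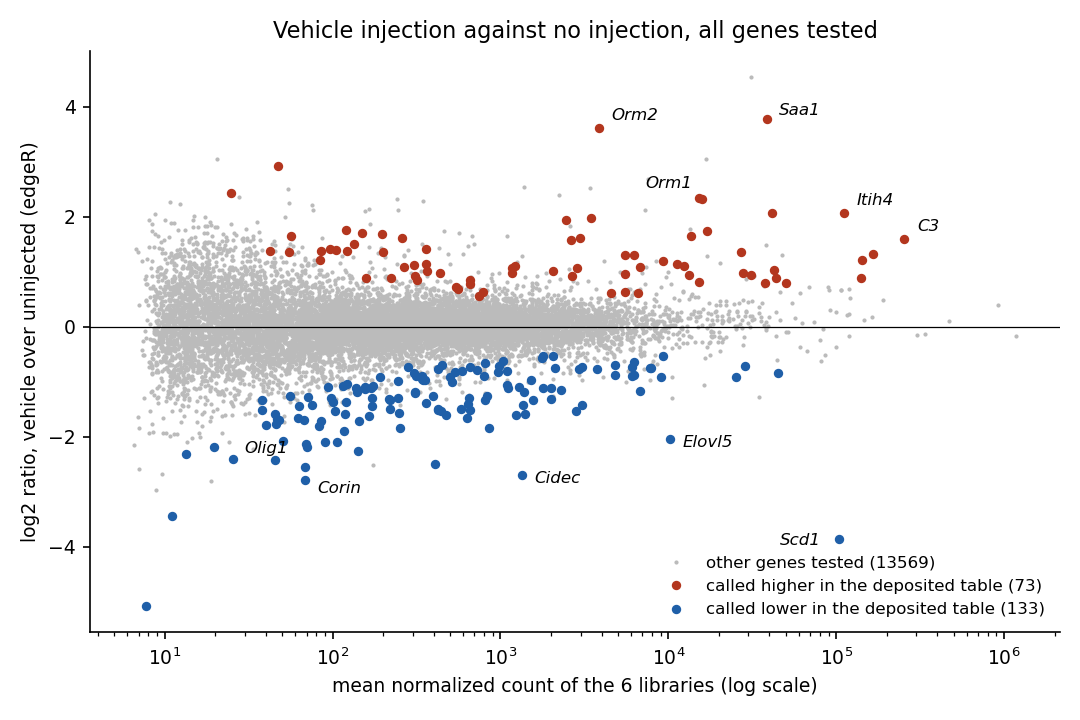
Log2 ratio of vehicle over uninjected livers (vertical axis) against the mean normalized count of the 6 libraries (horizontal axis, log scale) for 13775 genes. Red and blue points are the 73 higher and 133 lower calls of the authors' deposited table; Orm2 lies at 3.61, Saa1 at 3.78 and Scd1 at -3.86, while the median of all genes is 0.02.

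Positive acute phase proteins, the plasma proteins that rise in inflammation, were the list with the largest median shift upward. Of 34 genes tested, 13 were deposited calls, all higher, and 19 had groups that did not overlap, all higher. Their median log2 ratio was 1.05, against 0.02 over all genes, and 31 of 34 were above 0. The median was 0.65 without vehicle replicate 55 and 1.28 without vehicle replicate 23. Together these 34 genes took 3.33% ± 0.157 of all counts in uninjected livers and 7.03% ± 2.44 in vehicle livers (SD, n = 3), with 6.66%, 4.8% and 9.63% in vehicle replicates 15, 23 and 55. Each vehicle library lay above the 3 uninjected ones.

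The serum amyloid A genes, which encode apolipoproteins of acute phase high-density lipoprotein, held the largest ratios. Saa1 had 4230, 7464 and 3986 normalized counts in uninjected replicates 4, 30 and 38 and 90365, 19362 and 105718 in vehicle replicates 15, 23 and 55. Vehicle replicates 15 and 55 were alike, and vehicle replicate 23 lay between them and the uninjected group. The ratio was 13.7-fold, with a log2 ratio of 3.78 ± 0.63 (SE, edgeR adjusted p = 0.14) and 18.8-fold without vehicle replicate 23. Saa2 had the highest log2 ratio of the list, 4.54 ± 0.89, and values of 73121, 6770 and 98921 in the vehicle libraries against 1953 to 3792 in the uninjected ones. It did not overlap between groups but was no deposited call (adjusted p = 0.051 in the authors' deposited table). Saa3 and Saa4 were deposited calls, 3.12-fold (1.83-fold without vehicle replicate 55) and 2.20-fold higher.

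Orm1, the second α1-acid glycoprotein gene, had 5162, 5524 and 5061 normalized counts in uninjected and 27564, 16540 and 34867 in vehicle replicates 15, 23 and 55, and was 5.01-fold higher. Its groups lay apart, and vehicle replicate 23 was again the lowest of its group. Fgl1, a secreted fibrinogen-like protein of hepatocytes, was 5.06-fold higher (5027 ± 1234 against 25430 ± 11691). Itih3 and Itih4, heavy chains that join hyaluronan, were 4.19-fold and 4.18-fold higher. Itih3 missed edgeR's threshold (adjusted p = 0.09) but was called by limma-voom and by edgeR without vehicle replicate 23.

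Several abundant carriers of this list were deposited calls with smaller ratios. Hpx (hemopexin), which binds free heme, rested at 86189 to 111897 normalized counts in uninjected livers and at 193484 to 323372 in vehicle livers. Hp (haptoglobin), which binds free hemoglobin, lay at 82721 to 91236 and 126791 to 269450. In both genes the groups were apart and vehicle replicate 55 was highest, with ratios of 2.51-fold and 2.31-fold. The metallothioneins Mt1 and Mt2, which bind zinc, were 2.29-fold and 2.48-fold higher, and the pentraxin Apcs 3.90-fold, or 2.51-fold without vehicle replicate 55.

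Other positive acute phase genes did not pass. Lcn2 (lipocalin 2), which captures bacterial iron carriers, had 8697, 4053 and 22460 normalized counts in vehicle replicates 15, 23 and 55 against 2378 to 3247 in uninjected livers, and the groups did not overlap. It was no deposited call (adjusted p = 0.2 in the authors' deposited table), and its 4.33-fold ratio was 2.35-fold without vehicle replicate 55. The fibrinogen chains Fga, Fgb and Fgg overlapped between groups, with log2 ratios of 0.66 to 0.72. Crp stood at 4775 to 6163 in uninjected and 5336 to 7521 in vehicle livers, also overlapping.

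The promoters of 13 of the 20 called acute phase and complement genes were found by symbol in RefSeq (GRCm38.p6), and 3 are printed here: Orm2 as the gene edgeR called, Saa1 as the acute phase call with the largest ratio, and C3 as the gene with the largest gain in counts. Each line gives the 250 bases before the gene's start, 5′ to 3′ on the gene's strand. Capitals mark the C/EBP-type letters TTGCNNAA, searched on both strands.
Orm2 (chr4:63362199-63362448, plus strand): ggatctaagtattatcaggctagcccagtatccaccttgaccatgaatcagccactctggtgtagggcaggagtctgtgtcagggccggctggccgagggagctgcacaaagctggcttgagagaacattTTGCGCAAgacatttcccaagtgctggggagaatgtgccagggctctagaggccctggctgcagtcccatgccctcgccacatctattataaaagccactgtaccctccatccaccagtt
Saa1 (chr7:46742981-46743230, minus strand): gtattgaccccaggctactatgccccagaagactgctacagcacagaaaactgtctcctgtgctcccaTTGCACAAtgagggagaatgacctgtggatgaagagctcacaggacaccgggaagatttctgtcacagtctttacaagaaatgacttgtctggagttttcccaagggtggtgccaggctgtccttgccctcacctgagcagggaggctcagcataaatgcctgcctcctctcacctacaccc
C3 (chr17:57228137-57228386, minus strand): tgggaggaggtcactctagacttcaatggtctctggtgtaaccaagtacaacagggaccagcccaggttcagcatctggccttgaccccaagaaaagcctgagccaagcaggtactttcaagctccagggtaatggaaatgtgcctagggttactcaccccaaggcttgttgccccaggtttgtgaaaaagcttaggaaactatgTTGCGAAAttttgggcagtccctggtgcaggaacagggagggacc
The match began 120, 182 and 45 bases before the start of Orm2, Saa1 and C3. These letters were present in 7 of the 13 promoters (Saa1, Saa3, Saa4, Orm2, Hpx, Mt2 and C3), beside 9.6% of 32851 RefSeq promoters of the same length and 8.2% of the 12823 belonging to tested genes. The STAT-type letters TTCNNNGAA were present in 3 of the 13 (Apcs, Itih4 and C8a), beside 7.0% of all promoters. A match describes these letters and shows no binding.

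**Figure D2:**
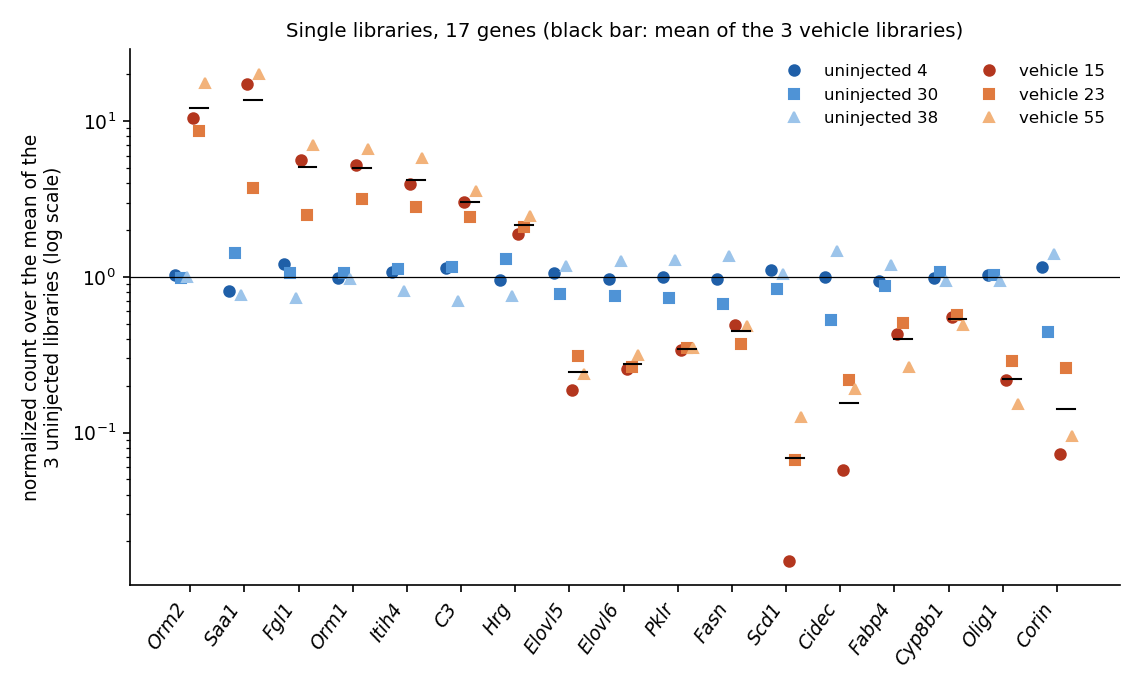
Normalized count of 17 genes in each of the 6 libraries, divided by the mean of the 3 uninjected libraries (vertical axis, log scale); blue symbols are uninjected, red and orange symbols vehicle libraries, and black bars their mean. Vehicle replicate 23 is the lowest vehicle library for Orm2, Saa1, Fgl1, Orm1, Itih4 and C3, and the 3 vehicle libraries nearly coincide for Pklr and Cyp8b1.

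Negative acute phase proteins, which fall in inflammation, did not move together. Of 11 tested genes 2 were deposited calls higher and 1 lower, and the median log2 ratio was 0.19. That median was 0.05 without uninjected replicate 38, 0.09 without vehicle replicate 15 and 0.34 without vehicle replicate 55. Hrg (histidine-rich glycoprotein) went from 7834 ± 2137 to 16835 ± 2213 normalized counts and Fetub (fetuin B) from 3751 ± 703 to 7286 ± 800 (SD, n = 3), and neither overlapped between groups. Serpina12 (vaspin), a serine protease inhibitor, had 277, 391 and 513 in uninjected and 202, 37.3 and 85.2 in vehicle livers. It was 3.63-fold lower, or 6.42-fold without vehicle replicate 15. Ttr (transthyretin) had a log2 ratio of -0.52 without overlap and Alb one of -0.16 with overlap.

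RNA of the cytokine pathway shifted less than that of the positive acute phase proteins. Among 29 tested genes of IL-6 and IL-1 signalling, 1 was a deposited call, beside 1.5% of all tested genes. Of the 29, 23 had a log2 ratio above 0, and 2 were apart, both higher. Il1r1, the receptor of interleukin-1, had 1686, 2582 and 1320 normalized counts in uninjected and 3250, 3217 and 5208 in vehicle livers, a 2.09-fold ratio without overlap. Cebpb, a C/EBP factor, did not overlap either, at 1186 to 1636 and 1694 to 2261, with a log2 ratio of 0.50 that no test called. Stat3 and Nfkbiz were high in vehicle replicate 55 alone (6189 and 1018, against 3378 to 3536 and 222 to 250 in the other vehicle livers). The list's median log2 ratio, 0.24, was -0.08 without that library. Il6 and Tnf fell below the expression filter.

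Complement and coagulation proteins, the proteolytic cascades that hepatocytes supply to plasma, were higher across much of their list. Of 37 tested genes, 7 were deposited calls, all higher, and 22 did not overlap, all higher, with a median log2 ratio of 0.49 and 35 of 37 above 0. C3, the central complement protein, had 143986, 147303 and 89546 normalized counts in uninjected and 384948, 307146 and 454007 in vehicle livers. The groups lay apart, with the lowest value in the shallow uninjected replicate 38, and the ratio was 3.01-fold (log2 1.59 ± 0.30). C8a, a chain of the membrane attack complex, was 3.17-fold higher and its partner C8b 3.58-fold higher, the latter without a call. Serping1 (C1 inhibitor) was 1.92-fold higher, Kng1 (kininogen) 1.74-fold and F7 (coagulation factor VII) 1.96-fold. The summed list took 2.33% ± 0.234 of all counts in uninjected and 4.14% ± 0.443 in vehicle livers.

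Fatty acid and triglyceride synthesis genes were lower. Of 27 tested genes, 8 were deposited calls, all lower, and 16 did not overlap, all lower, with a median log2 ratio of -0.66 and 22 of 27 below 0. The median was -0.41 without uninjected replicate 38. All 28 measured genes of the list took 1.76% ± 0.319 of the counts in uninjected and 0.45% ± 0.0195 in vehicle livers. The 3 vehicle libraries held 0.43%, 0.468% and 0.451%, each below every uninjected library.

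Scd1, the desaturase that makes oleic and palmitoleic acid, had 214512, 163007 and 203024 normalized counts in uninjected replicates 4, 30 and 38 and 2905, 12865 and 24263 in vehicle replicates 15, 23 and 55. Its share of all counts was 1.04% ± 0.2 and 0.0651% ± 0.0522. The groups were far apart, and vehicle replicate 15 was the lowest library. The ratio was 14.5-fold lower (log2 -3.86 ± 0.70, edgeR adjusted p = 0.16) and 24.5-fold without vehicle replicate 55. Elovl5, an elongase of polyunsaturated fatty acids, had 17212, 12649 and 19181 against 3058, 5065 and 3861, 4.09-fold lower (log2 -2.04 ± 0.25, edgeR adjusted p = 0.09). Elovl6, which elongates palmitate, had 1292, 1012 and 1699 against 340, 352 and 420, 3.60-fold lower. In both elongases each vehicle library lay far below the lowest uninjected one.

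Enzymes that supply carbon and reducing power followed. Pklr, the liver pyruvate kinase, had 4158, 3072 and 5347 normalized counts in uninjected and 1415, 1474 and 1457 in vehicle livers, 2.89-fold lower with hardly any spread among vehicle livers. Me1 (malic enzyme, a source of NADPH) was 2.22-fold lower, Fasn (fatty acid synthase) 2.23-fold, Acacb (an acetyl-CoA carboxylase) 2.52-fold and Fads1 (a desaturase) 1.67-fold. RNA of the regulator genes Srebf1 (SREBP-1c) and Mlxipl (ChREBP) overlapped between groups. Srebf1 lay at 2786 to 4129 in uninjected and 3522 to 4416 in vehicle livers, and Mlxipl at 731 to 1738 and 1051 to 2588. The activity of these factors was not measured, and their part in the lower genes was not tested. Among 36 genes of glucose metabolism, the glycolytic enzymes Eno1 (1.82-fold) and Gapdh (1.68-fold) were deposited calls lower, and Igfbp2, an IGF-binding protein, was a deposited call 2.99-fold higher.

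The promoter of Fasn is shown because a non-coding gene upstream of it, Gm11773, was lower as well. Capitals mark CCAAT on either strand, the letters read by the factor NF-Y.
Fasn (chr11:120824548-120824797, minus strand): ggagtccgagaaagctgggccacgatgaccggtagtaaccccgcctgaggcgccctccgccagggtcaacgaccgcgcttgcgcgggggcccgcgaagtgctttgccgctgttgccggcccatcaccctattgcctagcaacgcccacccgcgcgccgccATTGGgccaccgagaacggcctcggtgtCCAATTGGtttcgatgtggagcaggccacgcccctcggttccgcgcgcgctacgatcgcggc
It held 3 matches, of which the farthest began 90 bases before the start, and the other two overlap each other on opposite strands. CCAAT was present in 4 of the 11 called lipid genes found in RefSeq (Acacb, Fasn, Elovl5 and Fabp2), beside 33.8% of all promoters, and the E-box CACGTG in 1 (Elovl5), beside 6.0%.

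Lipid droplet and lipid uptake genes were lower as well. Of 28 tested, 7 were deposited calls, all lower, and 14 did not overlap, all lower, with a median log2 ratio of -0.59 and 26 of 28 below 0. Cidec, a protein that fuses lipid droplets and is raised in fatty liver, had 2326, 1229 and 3410 normalized counts in uninjected and 134, 506 and 441 in vehicle livers. It was 6.45-fold lower, and its relative Cidea 4.23-fold lower. Mogat1, an acyltransferase of triglyceride synthesis, was 2.97-fold lower, G0s2, an inhibitor of triglyceride lipase, 2.68-fold, and the fatty acid binding proteins Fabp4, Fabp2 and Fabp1 2.5-fold, 2.16-fold and 1.80-fold. Plin2, the main coat protein of hepatocyte droplets, lay at 12134 to 16057 in uninjected and 5424 to 10191 in vehicle livers, apart but not called (adjusted p = 0.051 in the authors' deposited table). Cd36, a fatty acid transporter, was also apart, with vehicle replicate 23 at 6510 just under the uninjected 6844 to 8017.

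Fatty acid oxidation and PPARα target genes shifted less. Of 41 tested, 2 were deposited calls lower, 9 were apart and lower and 1 apart and higher, with a median log2 ratio of -0.19, or -0.12 without vehicle replicate 55. Acaa1b, a peroxisomal thiolase, was 1.87-fold lower and Acot2, a mitochondrial thioesterase, 1.69-fold lower. The PPARα target Cyp4a14 overlapped, at 19548 to 41581 in uninjected and 16416 to 37679 in vehicle livers. Of 77 nuclear genes of oxidative phosphorylation none was a deposited call, beside 1.5% of all tested genes. Of these 77, 74 had a log2 ratio below 0 and 22 were apart and lower, beside 10.2%. Their median was -0.21, and vehicle replicate 55 held the lowest level of the list, -0.47 against the uninjected mean on the log2 scale, where vehicle replicates 15 and 23 were at -0.08 and -0.09. Without vehicle replicate 55 the median log2 ratio was -0.09.

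Cholesterol synthesis genes were spread rather than shifted. Of 26 tested, none was a deposited call and 1 was apart, beside 1.5% and 19.7% of all tested genes. Still, the median log2 ratio was 0.42. Sqle (squalene epoxidase) had 345, 294 and 1234 normalized counts in uninjected replicates 4, 30 and 38 and 618, 369 and 2420 in vehicle replicates 15, 23 and 55. A single library in each group was high, uninjected replicate 38 and vehicle replicate 55, and the groups overlapped. Without vehicle replicate 55 the median turned to -0.10. It was 0.25 without uninjected replicate 4, 0.72 without uninjected replicate 38 and 0.67 without vehicle replicate 23. Among 21 lipoprotein genes Pltp, the phospholipid transfer protein, was the 1 deposited call, 2.16-fold lower.

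Drug metabolism genes moved in both directions. Of 43 phase I genes tested, 3 were deposited calls higher and 2 lower, and 9 were apart and higher and 7 apart and lower. Over all tested genes these shares were 0.53% and 0.966% called and 9.44% and 10.2% apart. Cyp1a2, an oxidase of aromatic amines and caffeine, had 1324, 2315 and 728 normalized counts in uninjected and 6323, 4415 and 2683 in vehicle livers, 3.07-fold higher. Por, the electron donor of all microsomal P450 enzymes, was 1.76-fold higher and Nr1i3 (CAR), a nuclear receptor for drugs, 1.54-fold higher. Cyp2a22 and the carboxylesterase Ces2e were 2.85-fold and 1.83-fold lower. Cyp3a11, the main target of the pregnane X receptor, overlapped widely, at 24226, 11393 and 30286 against 5898, 21995 and 3925, with vehicle replicate 23 inside the uninjected range. Its edgeR adjusted p was 0.52.

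Phase II conjugation genes leaned lower, with 4 deposited calls of 41, all lower, 9 apart and lower and 1 apart and higher. Ugt1a9, a glucuronosyltransferase, had 532, 484 and 1075 normalized counts in uninjected and 63.6, 220 and 86.3 in vehicle livers, 5.66-fold lower and 9.31-fold without vehicle replicate 23. Gstm2, a glutathione transferase, had 1239, 1345 and 889 against 521, 469 and 387, 2.52-fold lower, with groups well apart. Gstm1 and Ugt1a5 were 1.88-fold and 1.97-fold lower. In the bile acid list of 20 genes Cyp8b1, the sterol 12α-hydroxylase that sets the share of cholic acid, was the 1 deposited call. It had 7838, 8560 and 7436 normalized counts in uninjected and 4395, 4500 and 3903 in vehicle livers, 1.86-fold lower with little spread in either group. Cyp7a1, the rate-limiting enzyme of the pathway, ranged from 1100 to 9352 and from 2263 to 10371 and overlapped.

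Near-identical copies can share reads, so the split among Orm1 and Orm2, Saa1 and Saa2, the Ugt1a, Gstm and Cyp2a genes, and Serpina1e and its copies is uncertain.

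**Figure D3:**
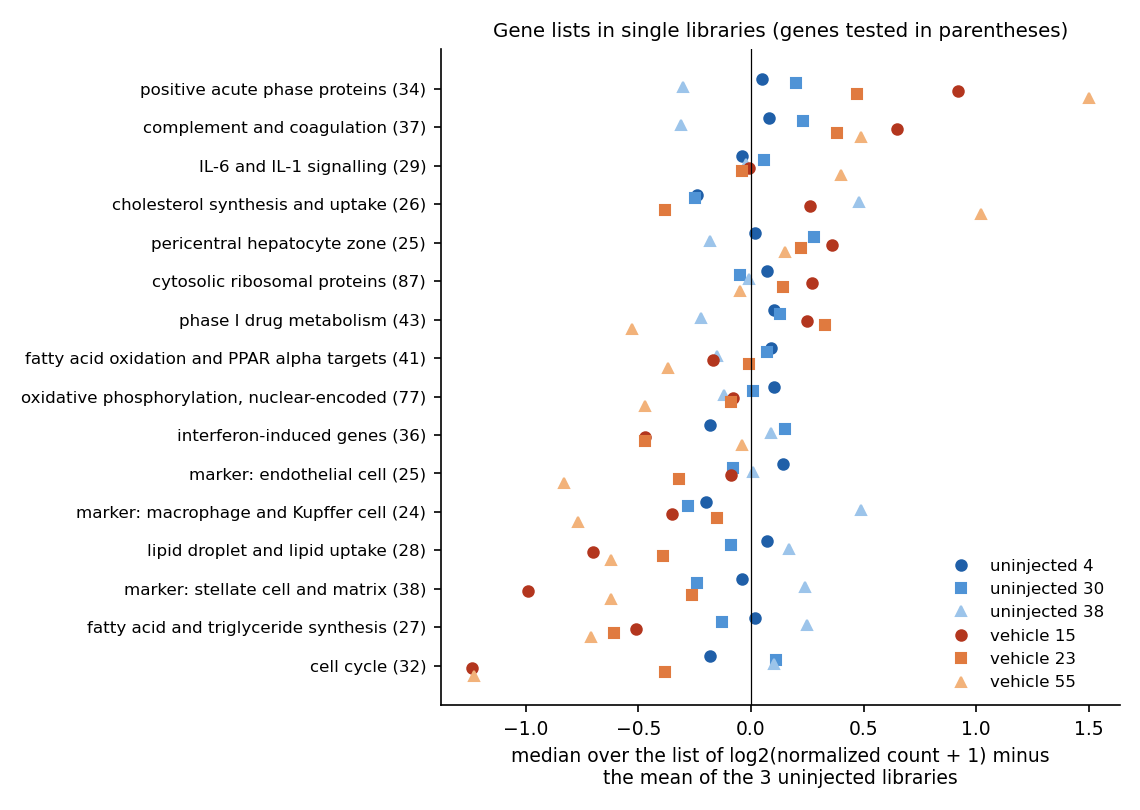
Median over each gene list of log2(normalized count + 1) minus the mean of the 3 uninjected libraries (horizontal axis), for 16 lists and 6 libraries, with the number of genes tested in parentheses. Vehicle libraries lie above all uninjected ones for the acute phase (0.47 to 1.5) and complement lists and below them for fatty acid synthesis (-0.71 to -0.51), lipid droplet, stellate and cell cycle genes, while cholesterol synthesis and IL-6 genes are high in vehicle replicate 55.

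Markers of other liver cells were followed through the same libraries. In bulk tissue fewer cells of a type and less RNA per cell cannot be told apart. Stellate cell and matrix genes were lower: of 38 tested, 3 were deposited calls, all lower, 18 were apart and lower, none apart and higher, and the median log2 ratio was -0.61. Col14a1, a fibril-associated collagen, had 2803, 2337 and 3056 normalized counts in uninjected and 978, 1633 and 1199 in vehicle livers, 2.15-fold lower. Thbs2 (thrombospondin 2) was 2.61-fold and Sparc, a matrix protein, 1.87-fold lower. Summed over the 39 measured markers, the level was 22771 to 30014 in uninjected and 12594 to 21166 in vehicle livers, without overlap. Col1a1, the main fibrillar collagen, varied most, with 60.7, 758 and 404 in vehicle livers against 485 to 603.

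Endothelial markers followed, with 3 deposited calls lower of 25 and a median of -0.40. Apart were 10 lower and 1 (Bmp2) higher, beside 10.2% and 9.44% of all tested genes. Lyve1, a hyaluronan receptor of sinusoidal endothelium, had 1298, 1107 and 1121 normalized counts in uninjected and 354, 744 and 380 in vehicle livers, 2.38-fold lower. The endothelial cadherin Cdh5 and the receptor Tie1 were 1.73-fold and 1.66-fold lower. Their summed level was 17907 to 19946 in uninjected livers and 17406, 15463 and 11357 in vehicle replicates 15, 23 and 55. The lowest value was again in vehicle replicate 55, without which the median was -0.20.

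Macrophage and Kupffer cell markers gave no deposited call among 24 tested, which does not set them apart from the 1.5% of all tested genes. Their summed level overlapped, 14795 to 23113 against 10829 to 15446, with the highest value in uninjected replicate 38, and their median log2 ratio of -0.45 was -0.13 without that library and -0.27 without vehicle replicate 55. Neutrophil markers summed to 2677 to 3498 and 4202 to 22825, almost all from Lcn2, which hepatocytes also make, and 9 of the 16 measured, with Ly6g, Mpo and Elane, had a mean under 10 normalized counts. Of 22 lymphocyte markers 18 were under that level. Hepatocyte markers summed to 2001050 to 2745924 and 1978348 to 2795496 and overlapped. Mesothelial markers, of interest after injection into the peritoneal cavity, summed to 2461 to 3452 and 2537 to 3726 and overlapped. Hemoglobin was lower: Hbb-bs had 3711, 4126 and 3169 in uninjected and 2060, 2022 and 2424 in vehicle livers, 1.69-fold lower and a deposited call. The part of these cell types in the other results was not tested.

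Cell cycle genes were low in both groups and lower with vehicle. Of 32 tested, 3 were deposited calls, all lower, 18 were apart and lower and 1 apart and higher, with a median log2 ratio of -1.04. The median was -0.47 over the genes with a mean of at least 50, so it rested partly on genes with few counts. Top2a, the topoisomerase of dividing cells, had 80.5, 113 and 118 normalized counts in uninjected and 24.1, 54.4 and 16.6 in vehicle livers, 3.27-fold lower. Cenpf, a kinetochore protein, was 5.34-fold lower and cyclin B2 (Ccnb2) 4.81-fold. Without vehicle replicate 23 the ratios of Top2a and Cenpf were 5.10-fold and 8.57-fold. Mki67 was apart at 135 to 182 and 30.8 to 114, with no call. Tk1, the thymidine kinase of the salvage pathway, was the exception, with 141, 188 and 136 against 611, 333 and 192.

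Interferon-induced genes leaned lower, with 2 deposited calls of 36, both lower, and a median of -0.31, or -0.55 without vehicle replicate 55. Apart were 10 lower and none higher, beside 10.2% and 9.44% of all tested genes. Cxcl9, a chemokine induced by interferon-γ, had 217, 180 and 352 normalized counts in uninjected and 80.9, 98.8 and 60.3 in vehicle livers, 3.12-fold lower. Usp18, a brake on interferon signalling, was 1.85-fold lower. The list of further chemokines and related genes, which does not hold Cxcl9, had 13 tested members and no deposited call, and 1 of them (Cmtm6, a chemokine-like factor relative) was apart.

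Each list of stress programmes held 0 or 1 deposited call. Since 1.5% of all 13775 tested genes were called, such counts do not set these lists apart. Gadd45b, a stress-induced sensor, was the 1 deposited call of 25 glucocorticoid-responsive and stress genes. It had 232, 226 and 120 normalized counts in uninjected and 532, 465 and 588 in vehicle livers, 2.74-fold higher with groups well apart. The glucocorticoid target Fkbp5 had a log2 ratio of 0.03 and Tsc22d3 one of -0.15. None of 35 genes of the unfolded protein response was a deposited call or apart. The 11 heat shock genes gave no deposited call either, and Hspd1 was high in vehicle replicate 55 alone, at 19016 against 7118 and 7875. Of 18 clock genes none was a deposited call and 4 were apart, all higher, among them Cry1 at 111 to 145 and 159 to 227. Of 27 NRF2 target and antioxidant genes, Taldo1, an enzyme of the pentose phosphate pathway, was a deposited call, 1.44-fold lower. None of the 87 tested ribosomal protein genes was a deposited call, while 73 had a log2 ratio above 0. Of the 87, 18 were apart and higher and 1 apart and lower, beside 9.44% and 10.2% of all tested genes. Their median log2 ratio of 0.12 turned to -0.02 with library totals. It was 0.05 without vehicle replicate 15 and 0.20 without vehicle replicate 55.

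Genes with a sex bias or a zonal pattern in the liver lobule varied widely. Among 17 male-biased genes none was a deposited call, beside 1.5% of all tested genes. Of the 17, 14 had a log2 ratio above 0, and the median was 0.54. That median was 0.84 without uninjected replicate 30, 0.36 without uninjected replicate 38 and 0.28 without vehicle replicate 15. Serpina1e, an α1-antitrypsin copy, had 2771, 7538 and 558 normalized counts in uninjected and 63371, 8564 and 17916 in vehicle livers, apart but with a large spread in both groups. Of 12 female-biased genes Ntrk2, a neurotrophin receptor, and Cyp17a1, a steroid hydroxylase, were deposited calls, 3.28-fold and 2.80-fold lower. In that list 10 of 12 had a log2 ratio below 0, with a median of -0.76. The median was -0.46, -1.43 and -0.43 without vehicle replicates 15, 23 and 55 in turn. Of 25 pericentral genes Rnase4 (3.34-fold) and Cyp1a2 were deposited calls higher and Nt5e (2.39-fold) lower. Of 25 periportal genes Cyp8b1 and Cyp17a1 were deposited calls, both lower.

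Further genes had some of the largest differences among the deposited calls. Corin, a serine protease that activates natriuretic peptides, had 139, 53.2 and 168 normalized counts in uninjected and 8.7, 31.2 and 11.4 in vehicle livers, 7.02-fold lower and 11.9-fold without vehicle replicate 23. Olig1, a transcription factor known from glial cells, had 119, 119 and 109 against 25.0, 33.3 and 17.7, 4.56-fold lower (log2 -2.19 ± 0.27, edgeR adjusted p = 0.09). The protease Adamts4 was 5.87-fold, the magnesium transporter relative Nipal1 4.83-fold, the bile duct keratin Krt23 4.42-fold and tenascin C (Tnc) 4.25-fold lower. Krt23 had 17.3, 54.4 and 5.2 in vehicle livers against 105 to 124, and was 10.1-fold lower without vehicle replicate 23. It was the 1 deposited call of 10 tested cholangiocyte (bile duct cell) markers, of which 7 had a log2 ratio above 0. The median of that list was 0.28, or 0.17 without uninjected replicate 4, 0.12 without uninjected replicate 30 and -0.02 without vehicle replicate 55. The ribonuclease Ang (angiogenin) was 3.85-fold, Enho, which encodes the secreted peptide adropin, 3.41-fold and Adam11 3.13-fold higher. These 9 were named by a rule that took only deposited calls whose groups did not overlap, so that trait is no result about them.

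Among the 206 deposited calls, 190 were protein-coding in GENCODE M21. Called were 4 of 230 tested lincRNAs, 3 of 191 antisense RNAs and 1 of 204 processed pseudogenes, all lower, beside 1.5% of all tested genes. Genes without overlap went both ways in each type. There were 20 higher and 24 lower among the 230 lincRNAs, and 11 and 14 among the 191 antisense RNAs. Among the 204 processed pseudogenes there were 26 and 20. Over all tested genes 9.44% were apart and higher and 10.2% apart and lower. Gm36041, a lincRNA, had 152, 174 and 132 normalized counts in uninjected and 52.0, 71.6 and 35.3 in vehicle livers, 2.88-fold lower, while its neighbour Avpr1a, a vasopressin receptor, had a log2 ratio of 1.38. Gm45220, Gm45221, Gm45222 and Gm45223, unclassified transcripts (type TEC) within chromosome 7, were all deposited calls higher, by 2.07-fold to 3.23-fold.

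Deposited calls lying within 50 kb of another formed 18 clusters of 43 genes, 14 of them of 1 direction. How often all tested genes lie this near or share a direction was not counted, so no excess can be read from these counts. Itih3 and Itih4, Orm1 and Orm2 (chr4:63344560-63348163 and chr4:63362449-63365878, plus strand), Saa1, Saa3 and Saa4, Mt1 and Mt2, and Fetub, Hrg, Kng1 and Kng2 were such clusters with every member higher. Fasn was lower beside Gm11773, an antisense RNA upstream of it on the opposite strand that had 15.2, 14.1 and 15.9 normalized counts in uninjected and 1.0, 0.0 and 0.0 in vehicle livers. Elovl6 was lower beside the antisense Gm35986 (log2 -2.32). Rnase4 and Ang share a promoter region and overlap, and Gm35986 overlaps the start of Elovl6. Hectd2 and its antisense Hectd2os overlap in the genome and differed in opposite directions, 2.62-fold higher and 2.46-fold lower. Whether the counting used strand is not given in the sources used here, so reads of overlapping partners may not be separable.

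The same genes can be set beside the chow and PCN livers, which the other deposited tables list for the genes the authors called there. Those tables share libraries with this comparison, so the values are a description with no test. A gene has chow or PCN values only if it was called there, and most genes here were named for their vehicle difference. Likeness between vehicle and PCN livers is thus partly set by the choice of genes and is no repeat of the result. PCN livers had been injected too, though the labels give no carrier for PCN. Orm1 stood at 4566 ± 957 normalized counts in chow, 5249 ± 243 in uninjected high-fat-diet, 26324 ± 9226 in vehicle and 26154 ± 13462 in PCN livers. Orm2 stood at 125 ± 5.71, 584 ± 12.9, 7140 ± 2754 and 4967 ± 3994, with PCN replicate 11 at 696, near the uninjected level. The PCN livers thus spread over the range from uninjected to vehicle values for Orm2. Fgl1 and C3 were also higher in both injected groups than in both uninjected ones (Fgl1 2795 ± 513, 5027 ± 1234, 25430 ± 11691 and 19466 ± 9095).

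Elovl5 stood at 18217 ± 1892 in chow and 16347 ± 3351 in uninjected livers, and at 3994 ± 1010 and 3945 ± 1439 in vehicle and PCN livers. Scd1 (285938 ± 87616, 193515 ± 27038, 13344 ± 10687 and 27608 ± 30305) and Olig1 (101 ± 10.6, 116 ± 5.77, 25.3 ± 7.8 and 35.3 ± 26.6) were also lower in both injected groups than in both uninjected ones. In these 3 genes every vehicle and PCN library lay below every uninjected one. Pklr and Cidec were different: their chow levels (1433 ± 203 and 319 ± 177) were near the vehicle levels (1448 ± 30.3 and 360 ± 199), and the uninjected high-fat-diet livers stood above both. Elovl6 (905 ± 89.4, 1334 ± 345, 371 ± 43.1 and 1461 ± 346) and Cyp8b1 (10374 ± 2133, 7945 ± 569, 4266 ± 319 and 8707 ± 2066) were low in the vehicle group and not in the PCN group. Cyp1a2 was lowest in uninjected high-fat-diet livers, at 1456 ± 801 against 5934 ± 1629 in chow, 4474 ± 1820 in vehicle and 8116 ± 2578 in PCN livers (SD, n = 3 in each group).

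**Figure D4:**
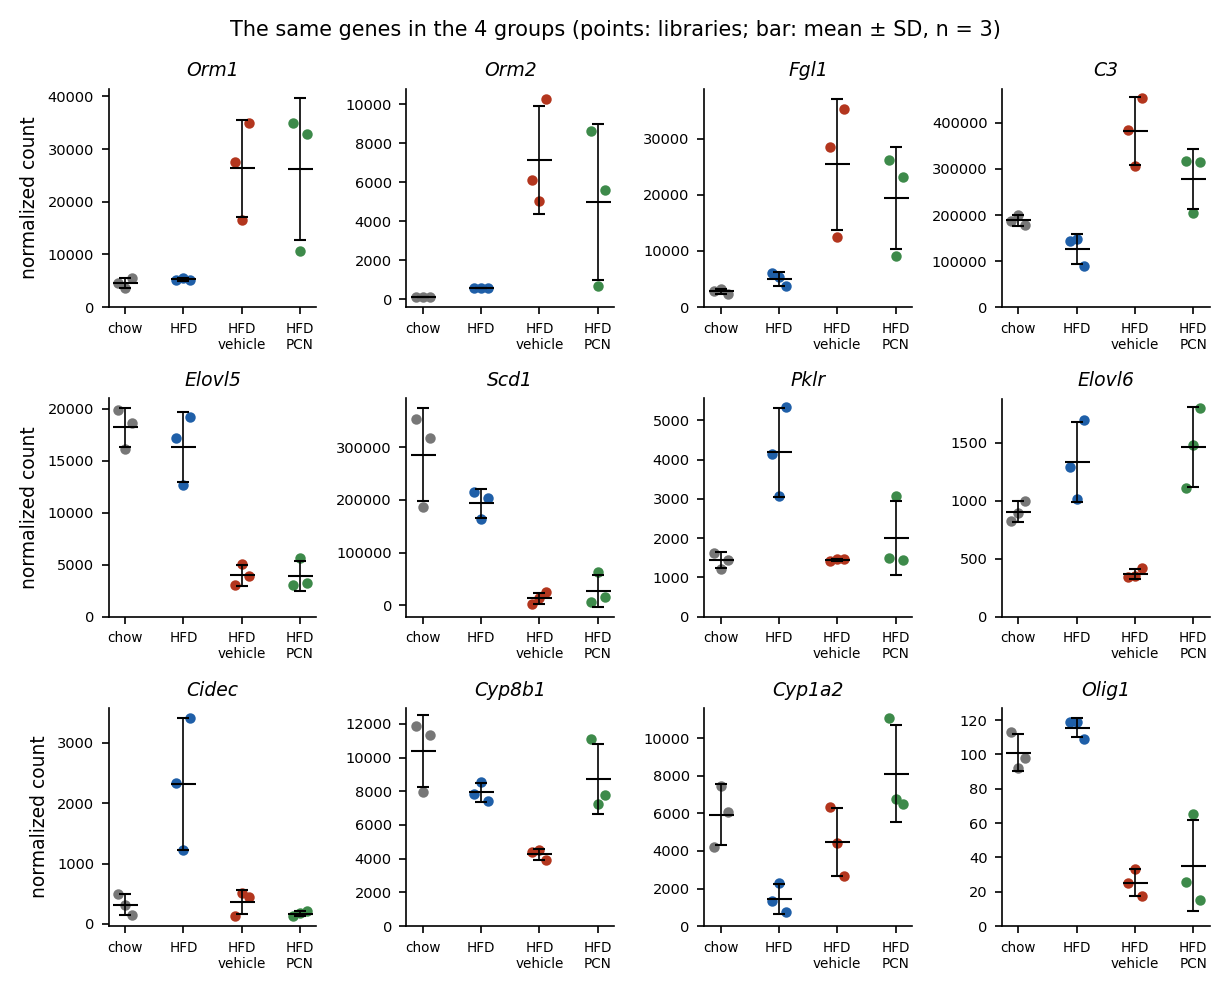
Normalized counts (vertical axes) of 12 genes in chow, uninjected high-fat-diet (HFD), vehicle and PCN livers; points are libraries, and horizontal bars with whiskers are mean ± SD, n = 3. Orm1, Orm2 and Fgl1 are high and Elovl5, Scd1 and Olig1 low in the injected groups, while Elovl6 and Cyp8b1 are low in the vehicle group, at 371 ± 43.1 and 4266 ± 319.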

How the data were processed

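RNA-seq read counts of 6 livers were analysed. Per the submitters' processing notes the authors used HISAT2, HTSeq, DESeq2 and GRCm38/mm10, whose versions are not stated there. Raw counts per gene were deposited by the authors beside a mean of normalized counts and DESeq2 log2 fold changes, p-values and adjusted p-values, per the file headers, with decimal commas. The deposited log2 values are moderated toward 0 (median 0.85 of the edgeR ratio over the 206 called genes). Folds of single genes are therefore ratios of group means, while counts of genes past 2-fold or 4-fold used the edgeR log2 ratio. Size factors were recovered from the deposited counts and means (error of the rebuilt means up to 0.0241%). Of 26015 gene identifiers 25977 were found in GENCODE M21, whose gene types were used, and starts were raised by 1.

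The main test, on raw counts, was edgeR 4.0.16 in R 4.3.3: filterByExpr, TMM, quasi-likelihood, two-sided, Benjamini-Hochberg over 13775 genes, threshold 0.05. It was tested on simulated data. An exact permutation test of 3 against 3 cannot give p below 0.1. limma 3.58.1 (voom), DESeq2 1.42.0 and the other alternatives are in the closing section. The 39 gene lists, the comparison and the naming rule were chosen with earlier results of these data known. The rule named genes called by edgeR, the 12 largest log2 ratios in each direction among deposited calls without overlap and with a mean of at least 50, up to 5 called members of each list by smallest edgeR p (or, without a call, the 3 most abundant), the 3 non-coding genes with the smallest p in each direction, and list members by the values of their list. Further genes named beside neighbours or overlapping partners (Avpr1a, Hectd2, Hectd2os, Gm11773, Gm35986, Gm45220, Gm45223, Kng2) were chosen after their values were seen. List genes missing from the table were not analysed here. Depth, 7466378 to 38161486 counts, limits genes with few reads, most in uninjected replicate 38.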

Additional observations from a re-analysis of the deposited data

How the results depend on the processing

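No paired analysis was possible because the 2 groups share no replicate number. Calls of edgeR numbered 1, and 268 in a DESeq2 refit (204 of the 206 deposited calls among them), 283 with no filter (179 of them), 2 with limma-voom, 3 with thinned libraries and 3 without both uninjected 38 and vehicle 55; leaving out 1 library gave 0 to 9, the 9 without vehicle 23. The no-filter fit added genes with few counts and had a prior of 22 degrees of freedom against 3.9. At a deposited adjusted p under 0.01 the authors' deposited table held 120 calls.

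Genes without overlap numbered 548 higher and 2815 lower with library totals, and 3318 and 3410 without both libraries. Without 1 library they numbered 1649 to 2346 higher and 1872 to 2540 lower, where fewer samples make non-overlap easier.

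List medians without both libraries were 0.60 for acute phase, -0.01 for IL-6 and IL-1, -0.40 for fatty acid synthesis, -0.42 for lipid droplet, 0.14 for pericentral and 0.00 for macrophage genes. With library totals they were -0.29 for glucose, 0.12 for clock, -0.36 for NRF2 and -0.02 for ribosomal genes. At a mean of at least 50 they were -0.47 for cell cycle, 0.73 for neutrophil and 0.51 for mesothelial genes, and thinned -0.52 for cell cycle and 0.02 for cholangiocyte genes. With 1 library left out the ranges were -0.08 to 0.29 for IL-6 and IL-1, -0.75 to -0.41 for fatty acid synthesis, -0.74 to -0.45 for lipid droplet, 0.14 to 0.27 for clock, -0.36 to -0.10 for NRF2, -0.55 to -0.27 for interferon, -1.43 to -0.43 for female-biased and -0.02 to 0.38 for cholangiocyte genes. Of 39 lists 22 kept 1 sign under the 15 alternatives.

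Of 102 genes tried, 99 kept their direction. Without vehicle 55 the log2 ratio reversed for Nfkbiz (-0.37) and Sqle (-0.30), whose highest values with 1 library left out were 1.06 and 1.85, and without both libraries for Stat3 (-0.01) and Nfkbiz (-0.20). The causes were not tested. Depth limits the low genes: cell cycle genes and Gm11773 rest on few reads.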

Other observations

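Genes in this section were chosen after their values were seen, from the deposited calls outside the lists. They are single genes, with no count of the groups they belong to. Khk (ketohexokinase), the first enzyme of fructose use, had 7645, 6988 and 8085 normalized counts in uninjected and 5473, 4766 and 4263 in vehicle livers, 1.57-fold lower. Tkfc, which phosphorylates the glyceraldehyde formed from fructose, was 1.70-fold lower. The glycerol-3-phosphate dehydrogenases Gpd1 and Gpd2 were 1.68-fold and 2.26-fold lower, and Rgs16, a regulator of G-protein signalling, 2.68-fold lower. None of these 5 genes overlapped between groups, as was so for 205 of the 206 deposited calls.

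The zinc importers Slc39a4 and Slc39a5 were 2.01-fold and 2.43-fold lower, in the same livers in which the metallothioneins Mt1 and Mt2 were higher. The annexins Anxa2 and Anxa5, which bind membranes in the presence of calcium, were 3.06-fold and 2.46-fold lower, and S100a10, the partner of Anxa2, 1.94-fold. Lgals1 (galectin 1) had 1898, 1841 and 2548 normalized counts in uninjected and 339, 1149 and 624 in vehicle livers, 2.98-fold lower. The integrin chains Itga8 and Itgb3 and the laminin chain Lama2 were 2.51-fold, 1.79-fold and 2.10-fold lower.

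Vtn (vitronectin) was 2.05-fold and Clu (clusterin) 1.92-fold higher. Pzp, a protease inhibitor of the α2-macroglobulin family, was 1.85-fold higher, from 98671 to 182091 normalized counts on average. The antigen-presenting class II gene H2-Ab1 was 2.31-fold lower, and the class I genes H2-Q1 and H2-Q10 were 2.83-fold and 1.63-fold lower. H2-Q10, which hepatocytes secrete, had 31602 to 39721 in uninjected and 20819 to 23066 in vehicle livers. Cyp26a1, which degrades retinoic acid, was 2.72-fold higher. By difference of group means, the largest gain of any tested gene was in C3 and the largest loss in Scd1.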
